A study of Mus musculus with 72 samples.

Results

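The neurotransmitter receptor genes described here are the receptor genes of a gene panel measured in the cortex of mice that model amyloid deposition. They were taken by name: a row was a member if its symbol began with Gria, Grin, Grik, Gabr, Chrm, Chrn, Drd, Htr, Adra, Adrb, Glr, Oprm or Oprk, or with Grm or Cnr and a digit. The rule found 45 of 1266 genes. Of these, 44 encode receptors or receptor subunits, and the remaining member, Htra2, encodes a mitochondrial serine protease that shares only the letters of the serotonin receptor prefix. Among the 44 receptor genes, 38 had a mean log2 value of at least 5 over all mice and 6 lay under it; the 6 are described apart. No opioid receptor gene was among the rows analysed here.

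RNA was measured in cortex of 36 mice aged 7.5 months, with 6 mice in each of 6 groups: 5xFAD, M28L_5xFAD and P522R_5xFAD, each as females and males. The labels give the number 14 to 2 records of M28L_5xFAD females, with different index numbers, and do not say whether they are 1 animal; they were counted as 2 mice. All groups carry the 5xFAD transgenes, human genes with familial Alzheimer's disease mutations driven by the Thy1 promoter, which is active mainly in neurons. M28L and P522R are variants of Plcg2, a phospholipase C expressed in microglia and other immune cells, so every comparison of genotypes was made within a background of amyloid pathology and none against a mouse free of it. Each mouse was assayed on 2 NanoString nCounter panels, which count RNA molecules with barcoded probes, and the values are normalized log2 counts. Probes of different genes capture RNA with different efficiency, so a level is compared only within a gene.

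Glutamate receptors of the AMPA, NMDA and kainate types are ion channels assembled from several subunits and carry fast excitation. Metabotropic glutamate receptors, and most receptors for acetylcholine, monoamines and cannabinoids in this set, act through G proteins that raise or lower cyclic AMP or activate phospholipase C. GABA-A and glycine receptors are chloride channels that carry fast inhibition, and a GABA-A channel is assembled from subunits of several families. Which subunit is present sets a channel's kinetics, calcium permeability and position at or away from the synapse.

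Which marker genes were measured is set by the panels' probes, so the cortex label could be set only against their levels. Summed levels over the 36 mice ran from 15.3 to 16.2 on the log2 scale for 7 neuronal markers, from 12.0 to 13.3 for 3 excitatory, from 13.2 to 13.9 for 7 inhibitory and from 10.3 to 11.0 for 3 striatal ones, of which Drd1 and Drd2 are members. Choroid plexus markers were not analysed here. Total counts ran from 921565 to 1957325 on the larger panel and from 237563 to 774198 on the smaller one. On the larger panel the 5xFAD females had 953461 to 1239109 counts and the M28L_5xFAD females 921565 to 1176360, the P522R_5xFAD females 1295271 to 1957325, and the males of the 3 genotypes 1428825 to 1800708. The totals therefore moved with sex, and in females with P522R, and their part in the differences below was not tested. One P522R_5xFAD male, number 30, had 259284 counts on the smaller panel against a group median of 575260. The labels name no run, so a run that differed between groups cannot be told apart from them.

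Upstream sequence was chosen among receptor genes with a mean log2 value of at least 5 and an entry in the RefSeq promoter table (GRCm38.p6). It is shown for 4 that include the largest decreases and increases in P522R_5xFAD mice. Each is the 250 bases before an annotated start, 5′ to 3′ on the gene's strand: Gabrb2 (chr11:42420190-42420439, plus strand, 1 of 3 starts in that table) and Htr1a (chr13:105443443-105443692, plus strand), both lower in P522R_5xFAD, and Grin1 (chr2:25319188-25319437, minus strand) and Chrnb2 (chr3:89764633-89764882, minus strand), both higher. The Gabrb2 window lies inside the annotated gene, which begins at 42419515. Capitals mark every match on either strand to GGGCGG (the Sp1 box), TGACGTCA (the cyclic AMP response element), GCGGGGGCG (an Egr site, which can overlap the Sp1 box), TTCAGCACC (one end of the REST element) and TATAAA (the TATA box).
Gabrb2: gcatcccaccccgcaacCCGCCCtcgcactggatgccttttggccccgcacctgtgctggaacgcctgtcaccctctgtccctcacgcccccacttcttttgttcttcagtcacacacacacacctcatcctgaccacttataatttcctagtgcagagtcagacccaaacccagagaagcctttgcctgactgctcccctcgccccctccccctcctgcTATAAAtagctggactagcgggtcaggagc
Htr1a: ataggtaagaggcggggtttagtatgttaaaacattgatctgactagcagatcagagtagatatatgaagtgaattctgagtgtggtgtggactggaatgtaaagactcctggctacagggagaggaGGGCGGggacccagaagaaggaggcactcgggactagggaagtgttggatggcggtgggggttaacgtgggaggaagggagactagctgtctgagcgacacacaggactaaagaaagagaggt
Grin1: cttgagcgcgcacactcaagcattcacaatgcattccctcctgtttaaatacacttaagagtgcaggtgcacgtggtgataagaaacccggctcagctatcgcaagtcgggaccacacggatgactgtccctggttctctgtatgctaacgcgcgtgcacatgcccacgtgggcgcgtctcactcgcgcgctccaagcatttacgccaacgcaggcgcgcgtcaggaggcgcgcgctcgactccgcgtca
Chrnb2: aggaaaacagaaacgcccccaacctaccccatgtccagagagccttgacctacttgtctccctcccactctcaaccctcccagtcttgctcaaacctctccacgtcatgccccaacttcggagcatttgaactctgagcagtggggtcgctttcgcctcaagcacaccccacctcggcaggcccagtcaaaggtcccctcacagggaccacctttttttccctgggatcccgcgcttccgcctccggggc
Gabrb2 held 1 Sp1 box and 1 TATA box, Htr1a held 1 Sp1 box, and Grin1 and Chrnb2 held no match in these windows. Over all 32851 upstream windows of the same length, 32.7% held GGGCGG, 12.4% TATAAA, 2.57% GCGGGGGCG, 1.55% TGACGTCA and 0.301% TTCAGCACC. Among the 41 windows of the 32 receptor genes with an entry, 46.3% held GGGCGG, 12.2% TATAAA, 4.88% GCGGGGGCG, 2.44% TTCAGCACC and 0% TGACGTCA. Guanine and cytosine made up 58.8% of the Gabrb2 and Grin1 windows, 59.6% of Chrnb2 and 50.4% of Htr1a, against a median of 52.4% over all windows. These matches describe the letters of the windows, and their relation to the expression values was not tested.

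Across the 38 receptor genes, males and females formed separate blocks, and P522R_5xFAD mice formed a further block within each sex. In a principal component analysis of these genes the first component held 50.5% of the variance: the 18 females scored from 0.19 to 2.60 and the 18 males from -1.77 to -0.86. The second component held 24.8% and separated P522R_5xFAD mice, which scored from -2.05 to -0.29, from the other 24 mice, which scored from -0.13 to 1.49. The 12 M28L_5xFAD mice overlapped the 5xFAD mice of their sex on the first component. The same split was seen over the 1091 genes with a mean log2 value of at least 5. There the first component (42.3%) ran from -11.3 to -3.3 in females and from 4.4 to 10.0 in males. The second (28.7%) ran from -12.1 to -3.2 in P522R_5xFAD mice and from 0.96 to 11.6 in the others. Both analyses used the deposited scaling, and sex differences under other scalings are given below.

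**Figure D1:**
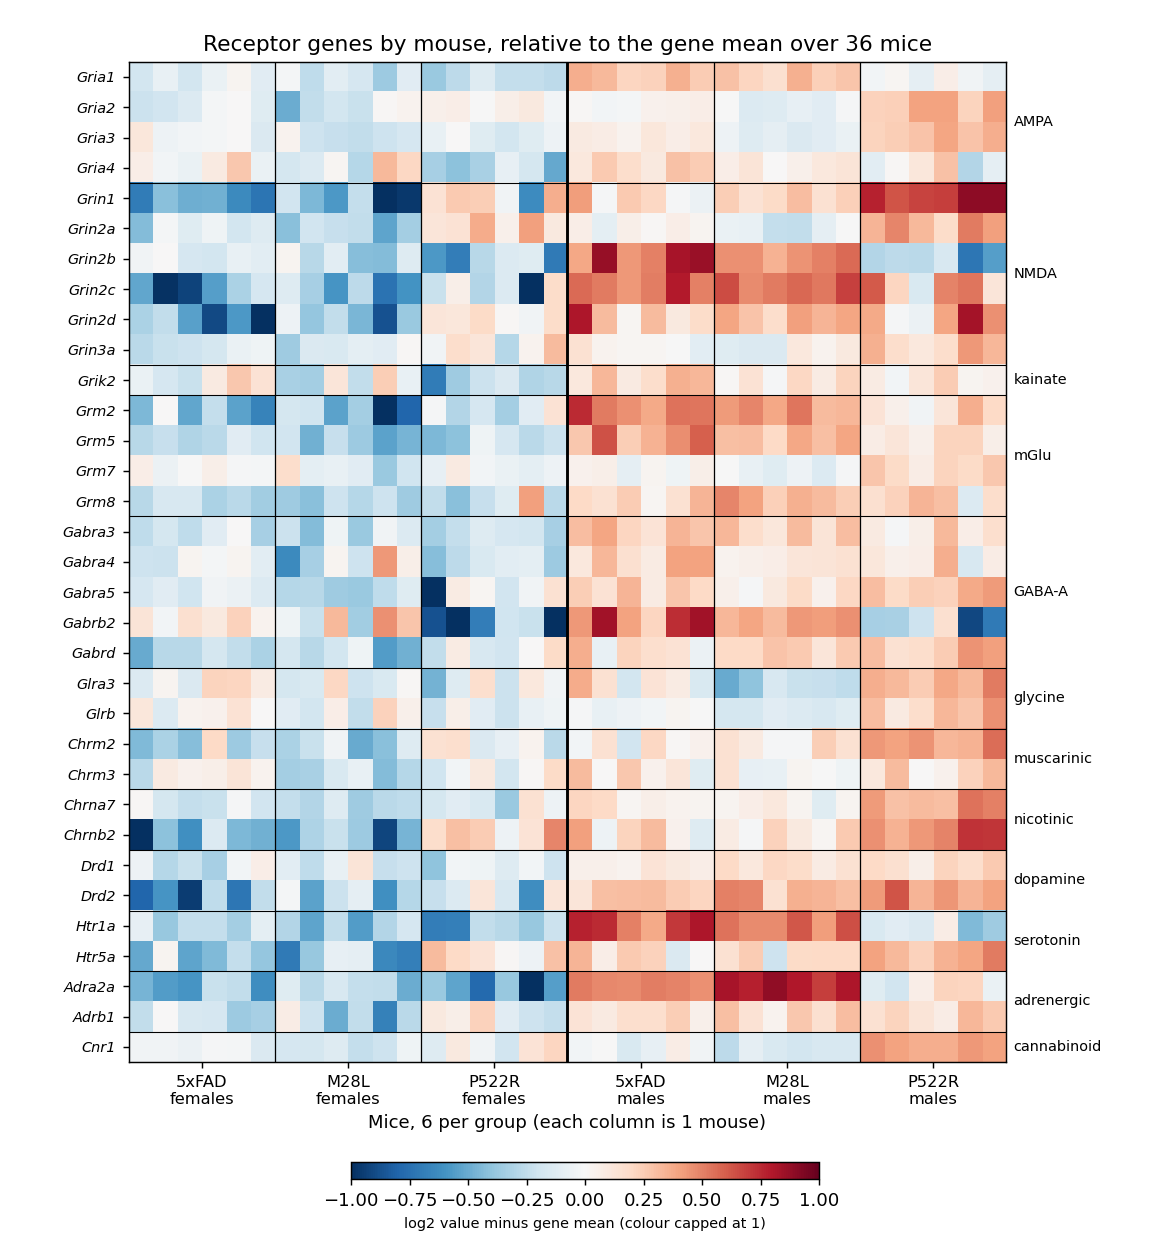
Log2 value of 33 receptor genes (rows, by receptor class) in 36 mice (columns, 6 per group), minus the gene's mean over all mice; red is above and blue below that mean, with the colour capped at 1. Most rows are bluer in females than in males, and Grin2b, Gabrb2 and Htr1a are bluer in P522R_5xFAD males than in the other males.

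The first question was which receptor genes differed between P522R_5xFAD and 5xFAD mice, averaged over the sexes. P522R_5xFAD cortex had less Gabrb2, Grin2b and Htr1a and more Grin1 and Chrnb2. In limma's test, 25 of the 38 genes passed an adjusted p of 0.05, with 16 higher and 9 lower. Of all 1266 genes 65.4% passed in that comparison, with 513 higher and 315 lower, so the share among receptors was near the background. The median log2 difference was 0.07 over the 38 receptors and 0.08 over all genes. Members of 1 class went both ways: AMPA, NMDA, GABA-A and serotonin receptors each had at least 1 member higher and 1 lower. In these bulk samples, fewer cells of a type and less RNA per cell cannot be told apart.

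**Figure D2:**
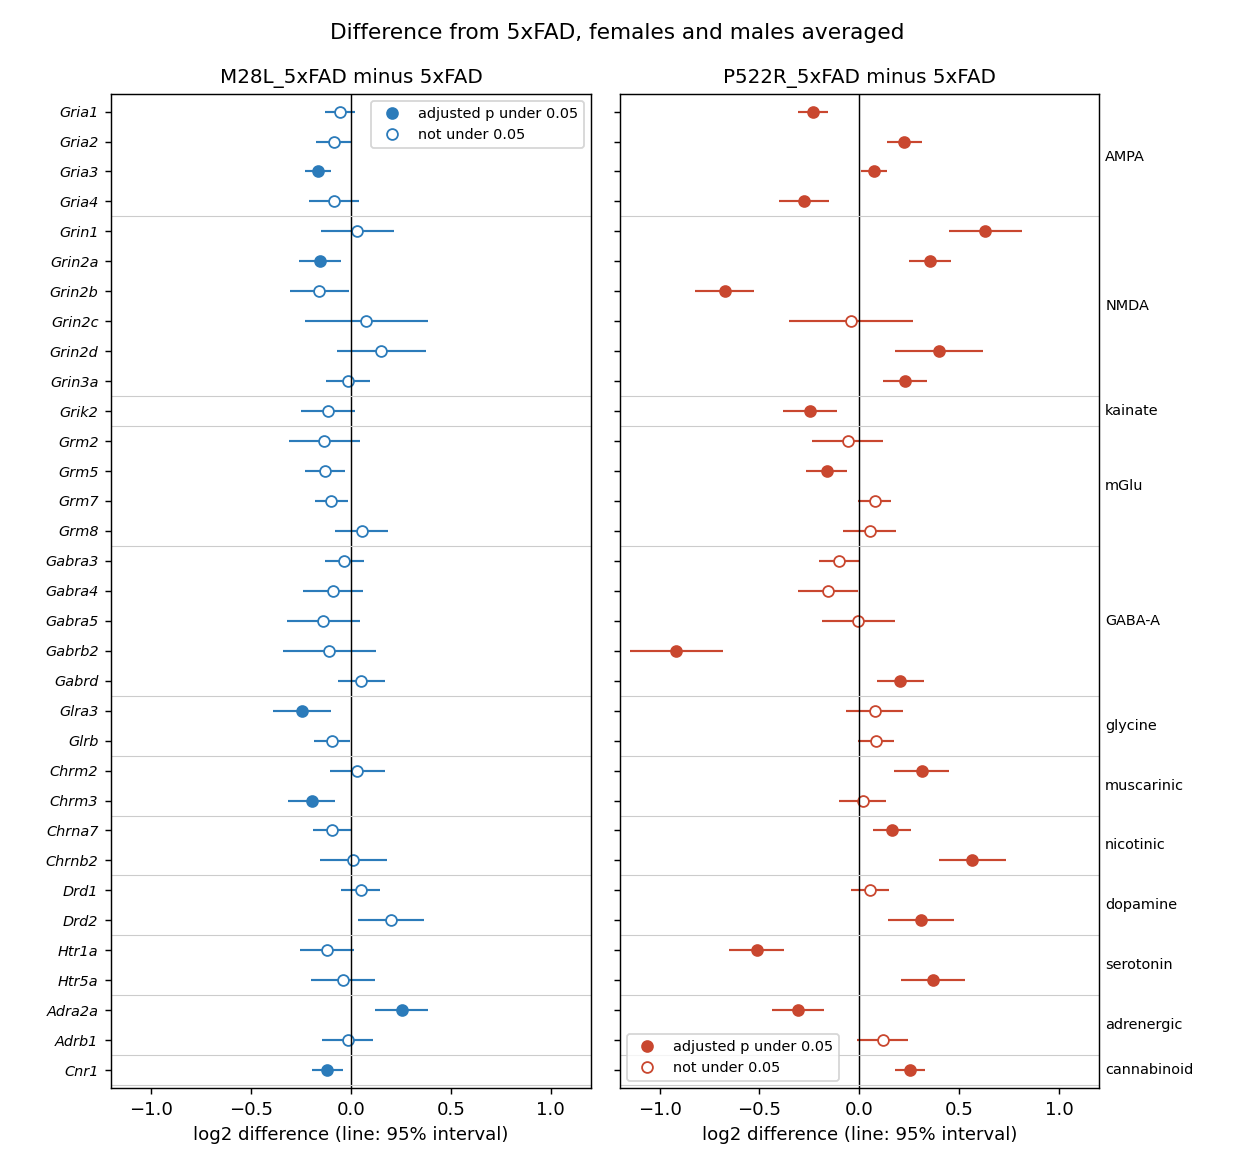
Log2 difference from 5xFAD mice with its 95% interval for 33 receptor genes by class, for M28L_5xFAD (left) and P522R_5xFAD (right), 12 mice per genotype; filled points passed an adjusted p of 0.05 in limma. Intervals on the left reach from -0.39 to 0.39, and the points on the right spread from -0.92 for Gabrb2 to 0.63 for Grin1.

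Among NMDA receptor genes, P522R_5xFAD mice had more RNA of the obligatory subunit, and RNAs of the glutamate-binding subunits changed in both directions. Grin1, which every NMDA receptor contains, ranged in females from 9.99 to 10.31 (median 10.16) in 5xFAD and from 10.10 to 11.09 (median 10.92) in P522R_5xFAD. In males it ranged from 10.66 to 11.14 (median 10.82) and from 11.35 to 11.62 (median 11.46), so only the male groups did not overlap. The log2 difference was 0.63 (SE 0.09, a 1.55-fold rise, adjusted p = 2.06e-07). Grin2b, the subunit that predominates early in development, went the other way. In females it ranged from 10.45 to 10.63 (median 10.54) in 5xFAD and from 9.93 to 10.52 (median 10.21) in P522R_5xFAD, and in males from 11.02 to 11.50 (median 11.30) and from 9.91 to 10.48 (median 10.35). Its difference was -0.67 (SE 0.07, 1.59-fold lower, adjusted p = 7.97e-10), and the males were again the sex without overlap.

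Grin2a, the subunit that joins NMDA receptors as synapses mature, was higher in P522R_5xFAD in both sexes without overlap. It ranged from 8.71 to 9.12 in 5xFAD and from 9.19 to 9.55 in P522R_5xFAD females, and from 9.04 to 9.21 and from 9.32 to 9.66 in males, with a difference of 0.35 (SE 0.05, adjusted p = 2.90e-07). Grin2d, found mainly in interneurons in cortex, differed by 0.40 averaged over the sexes (SE 0.11, adjusted p = 0.00187). Its females ran from 4.65 to 5.75 in 5xFAD and from 5.97 to 6.19 in P522R_5xFAD. The males covered nearly the same range, from 6.02 to 6.81 in 5xFAD and from 5.94 to 6.83 in P522R_5xFAD. Grin3a, a glycine-binding subunit that lowers calcium entry, differed by 0.23 (SE 0.05, adjusted p = 0.000392). Grin2c did not pass, at -0.04 with a 95% interval from -0.35 to 0.27; 1 P522R_5xFAD female lay at 4.37 while the other 5 lay between 6.14 and 6.61. Grin1, Grin2b and Grin2d were all read on the smaller panel, and each kept its direction and passed when that panel was centred on its own median.

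AMPA receptor genes also split. Gria2, whose subunit makes the channel nearly impermeable to calcium, was higher in P522R_5xFAD by 0.22 (SE 0.04, adjusted p = 2.42e-05), and its male groups ran from 11.23 to 11.32 in 5xFAD and from 11.48 to 11.67 in P522R_5xFAD. Gria1, the subunit added to synapses during potentiation, was lower by 0.23 on the log2 scale (-0.23, SE 0.04, adjusted p = 1.20e-06), with males from 10.91 to 11.06 in 5xFAD and from 10.61 to 10.77 in P522R_5xFAD. Gria4, a fast-gating subunit, was lower too, at -0.28 (SE 0.06, adjusted p = 0.000187). The 4 AMPA genes share the larger panel. Gria3 passed narrowly at 0.07 (SE 0.03, adjusted p = 0.0473); its difference was 0.04 after median centring and -0.02 after quantile normalization and passed in neither. It also missed the threshold without P522R_5xFAD female 8 (adjusted p = 0.0699) and without P522R_5xFAD male 30 (adjusted p = 0.0529). Grik2, the only kainate receptor gene measured, was lower in P522R_5xFAD at -0.25 (SE 0.07, adjusted p = 0.00174), with medians of 8.92 and 8.62 in females and a difference of -0.34 there against -0.15 in males.

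Among the metabotropic glutamate receptor genes, Grm5, which couples to Gq and phospholipase C, was lower in P522R_5xFAD at -0.16 (SE 0.05, adjusted p = 0.00445), but at -0.03 (adjusted p = 0.559) when each panel was centred on its own median and at an adjusted p of 0.0587 with housekeeping centring. Its medians were 9.73 and 9.74 in females and 10.38 and 10.07 in males, and the difference was -0.03 within females and -0.30 within males. Grm2, Grm7 and Grm8, presynaptic receptors that lower cyclic AMP, did not pass at -0.06, 0.08 and 0.05.

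Among the 8 GABA-A receptor genes at or above the floor, Gabrb2 had the largest change of any receptor gene measured there. This beta subunit ranged in females from 11.22 to 11.48 (median 11.37) in 5xFAD and from 9.90 to 11.05 (median 10.47) in P522R_5xFAD. In males it ranged from 11.46 to 12.09 (median 11.84) and from 10.34 to 11.41 (median 10.92). The groups did not overlap in either sex, and the P522R_5xFAD mice were more spread out, with SDs of 0.49 and 0.38 against 0.09 and 0.26. The difference was -0.92 (SE 0.12, 1.89-fold lower, adjusted p = 1.68e-08). Gabrd, the subunit of channels outside synapses, was higher at 0.21 (SE 0.06, adjusted p = 0.00256). Gabra3, Gabra4 and Gabra5 did not pass, at -0.10, -0.16 and -0.01, nor did the glycine receptor genes Glrb and Glra3, both at 0.08.

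Among the 4 acetylcholine receptor genes at or above the floor, 3 were higher in P522R_5xFAD and 0 lower. Of all 1266 genes 65.4% passed, 513 higher and 315 lower. Chrm5, the other one measured, lay near the floor and is described with the near-floor genes. Chrnb2, the beta subunit of the main high-affinity nicotinic channel, ranged in females from 6.47 to 7.37 (median 7.04) in 5xFAD and from 7.45 to 7.99 (median 7.72) in P522R_5xFAD, and in males from 7.37 to 7.91 (median 7.64) and from 7.85 to 8.23 (median 7.98). The females did not overlap and the males did, between 7.85 and 7.91. Its difference was 0.57 (SE 0.08, 1.48-fold, adjusted p = 3.16e-07). Chrna7, the subunit of the homomeric nicotinic channel, was higher by 0.16 (SE 0.05, adjusted p = 0.00279, but 0.246 with housekeeping centring). Its difference was 0.02 within females and 0.31 within males. Chrm2, a muscarinic receptor that lowers cyclic AMP, was higher by 0.31 (SE 0.07, adjusted p = 0.000137). Chrm3, the muscarinic receptor coupled to Gq, did not pass at 0.02 with a 95% interval from -0.10 to 0.13.

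Monoamine receptors split as the glutamate receptors did. Htr1a, the serotonin receptor that lowers cyclic AMP and dampens firing, had medians of 7.61 in 5xFAD and 7.52 in P522R_5xFAD females, with ranges of 7.47 to 7.77 and 7.16 to 7.64. In males it ranged from 8.23 to 8.66 (median 8.57) in 5xFAD and from 7.41 to 7.93 (median 7.70) in P522R_5xFAD, without overlap. The averaged difference was -0.51 (SE 0.07, 1.43-fold lower, adjusted p = 3.24e-08). Htr5a, also coupled to inhibitory G proteins, was higher at 0.37 (SE 0.08, adjusted p = 0.000102). Adra2a, the alpha2 receptor that lowers cyclic AMP, was lower at -0.31 (SE 0.06, adjusted p = 9.12e-05), and Adrb1 did not pass at 0.12. Drd2 was higher at 0.31 (SE 0.08, adjusted p = 0.00119), while Drd1 did not pass at 0.05. Cnr1, the cannabinoid receptor of axon terminals, was higher at 0.25 (SE 0.04, adjusted p = 3.32e-07).

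Of the 25 P522R calls, 17 kept their direction and passed under each of 4 other scalings: median centring, median centring within each panel, quantile normalization and centring on Gusb and Tbp, the 2 housekeeping genes measured. They included Chrm2, Chrnb2, Cnr1, Drd2, Grin1, Grin2a, Grin2d and Htr5a, higher, and Adra2a, Gabrb2, Gria1, Gria4, Grik2, Grin2b and Htr1a, lower. Gabrd, Gria2 and Grin3a kept their call under the first 3 and missed it with housekeeping centring, at adjusted p of 0.138, 0.0556 and 0.0607.

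**Figure D3:**
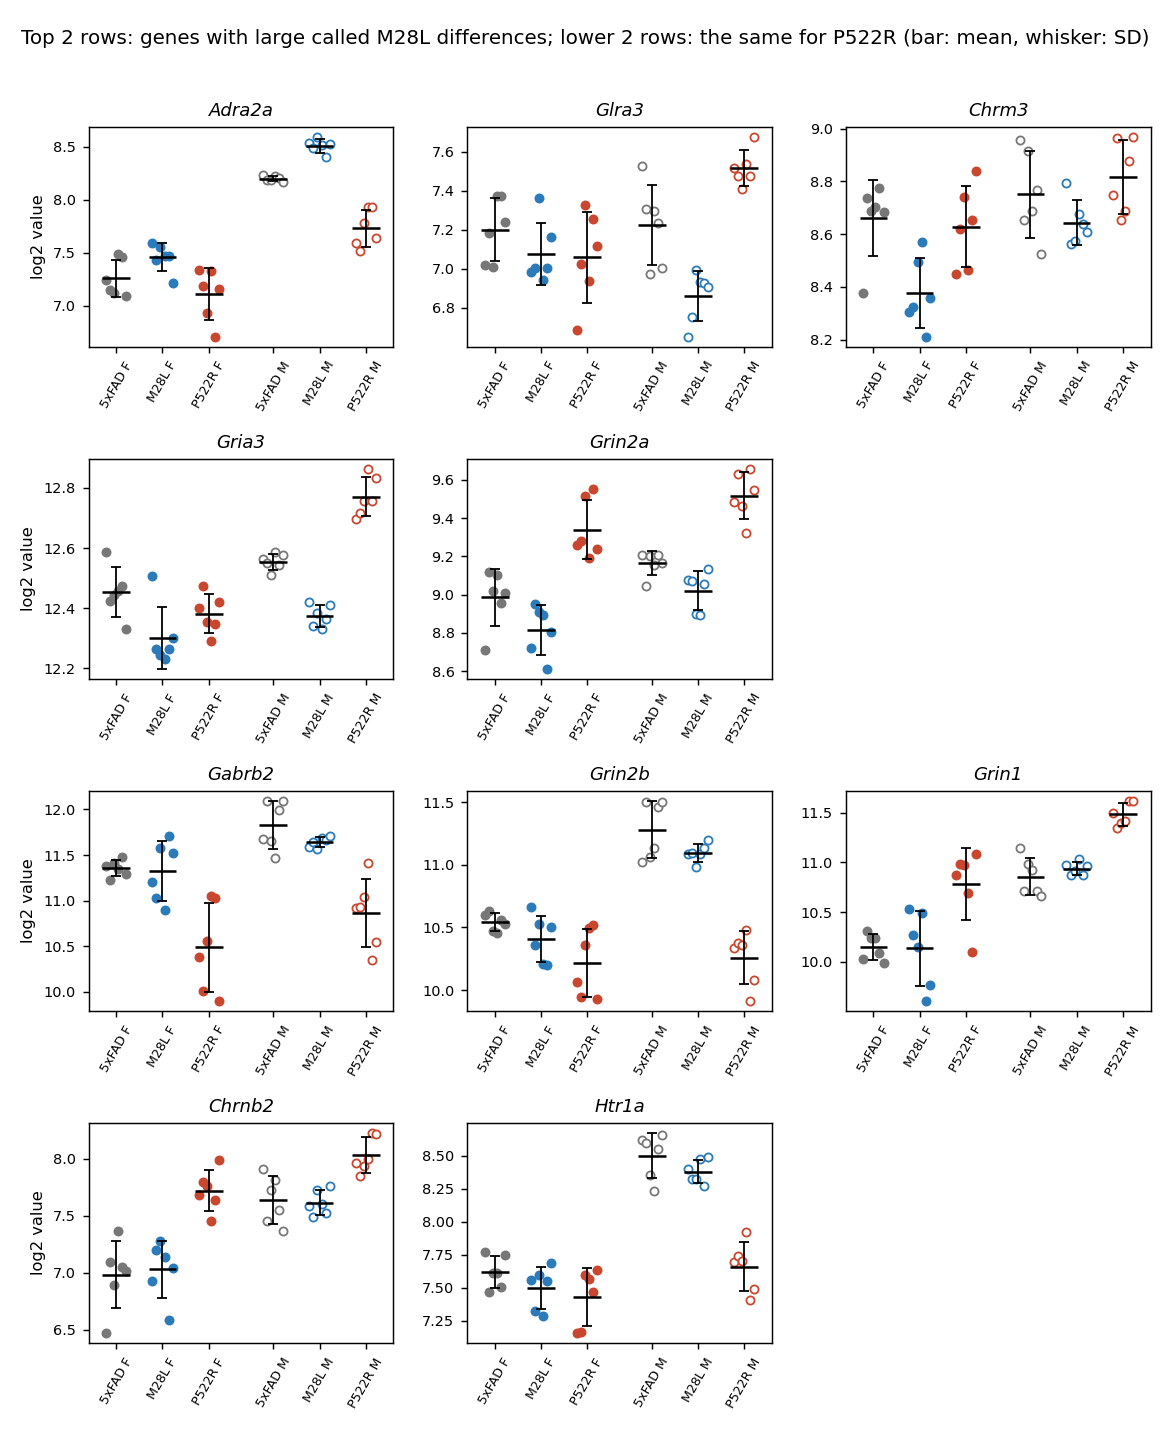
Log2 value per mouse for 5 receptor genes with large called M28L differences (top 2 rows) and 5 with large called P522R differences (lower 2 rows); filled points are females, open points males, bars the group mean and whiskers the SD of 6 mice. Gabrb2 lies lower in P522R_5xFAD in both sexes (females 9.90 to 11.05, males 10.34 to 11.41), and Adra2a is highest in M28L_5xFAD males (8.40 to 8.59).

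The second question was the same for M28L_5xFAD. Differences were small: Adra2a was higher, while Glra3, Chrm3, Gria3, Grin2a and Cnr1 were among those lower. The largest called difference was that of Adra2a, at 0.25 on the log2 scale. In all, 8 of 38 genes passed limma's test (1 higher, 7 lower), while 10.3% of all genes did (59 higher and 71 lower). The receptor median was -0.09, with 11 of 38 above 0, against 0.00 over all genes. The calls stayed mostly lower with median centring (1 higher, 6 lower), centring in each panel (0 and 5) and quantile normalization (1 and 6). Centred on the 2 housekeeping genes, 4 receptor genes passed and each was higher, where 24.2% of all genes passed and the median of all genes stood at 0.17. The 7 lower genes are all on the larger panel, where the median of all genes was -0.03 against 0.04 on the smaller panel.

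Gria3, an AMPA receptor subunit, gave the smallest p. It ranged from 12.33 to 12.59 (median 12.45) in 5xFAD and from 12.23 to 12.51 (median 12.26) in M28L_5xFAD females, and from 12.51 to 12.59 (median 12.56) and from 12.33 to 12.42 (median 12.37) in males, where the groups did not overlap. The difference was -0.17 (SE 0.03, adjusted p = 0.000543). With housekeeping centring the log2 difference itself was 0.0016, so its sign turned. Adra2a, an adrenergic receptor, ranged from 7.09 to 7.49 (median 7.2) and from 7.22 to 7.59 (median 7.47) in females, and from 8.16 to 8.23 (median 8.20) and from 8.40 to 8.59 (median 8.52) in males, again without overlap in males. Its difference was 0.25 (SE 0.06, adjusted p = 0.00846), and 0.15 with an adjusted p of 0.104 when each panel was centred. Against the same 5xFAD mice it was lower in P522R_5xFAD.

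Glra3, a glycine receptor alpha subunit, differed by -0.24 (SE 0.07, adjusted p = 0.0231): its medians were 7.21 and 7.0 in females and 7.26 and 6.91 in males. Chrm3 differed by -0.20 (SE 0.06, adjusted p = 0.0233), with medians of 8.69 and 8.34 in females and 8.73 and 8.62 in males. Grin2a differed by -0.16 (SE 0.05, adjusted p = 0.0473), near the threshold, and Cnr1 by -0.12 (adjusted p = 0.0392). Of the 8 calls, Gria3 alone passed under median centring, centring within panels and quantile normalization, and none passed in the same direction under all 4 scalings. Drd2 stood at 0.20 with an adjusted p of 0.115.

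The genes of highest level in the other classes did not pass: Grin1 was at 0.03 (95% interval -0.15 to 0.22), Drd1 at 0.05 (-0.05 to 0.14), Adrb1 at -0.02 (-0.14 to 0.11), Grik2 at -0.12 (-0.25 to 0.02), Chrna7 at -0.09 (-0.19 to 0.00) and Htr1a at -0.12 (-0.26 to 0.02). Glrb stood at -0.09 and Grm5 at -0.13. When each panel was centred, Chrna7 (-0.20), Htr1a (-0.22) and Grm5 (-0.23) passed. Within females 1 receptor gene passed, Chrm3 at -0.28, where 3.87% of all genes did, and 0 passed with the 2 females numbered 14 averaged; within males 2 passed, Glra3 at -0.36 and Gria3 at -0.18, where 2.05% of all genes did. The difference between the sexes in the M28L effect passed for no receptor gene and for 0% of all genes in limma, with 0 of the 44 receptor genes and 34 of 1266 genes at an unadjusted p under 0.05. Among the smallest p in that comparison were those of Glra3 (-0.24, 95% interval -0.53 to 0.05) and Grm8 (0.21, -0.06 to 0.47).

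Set directly against M28L_5xFAD, P522R_5xFAD differed in 25 receptor genes, 19 higher and 6 lower, while 67.6% of all genes passed. The lower genes were Gabrb2 (-0.81), Adra2a (-0.56), Grin2b (-0.52), Htr1a (-0.39), Gria4 (-0.19) and Gria1 (-0.18). The higher ones were led by Grin1 (0.60), Chrnb2 (0.55) and Grin2a (0.51). Both members of the glycine class, Glra3 (0.32) and Glrb (0.18), and both muscarinic genes at or above the floor, Chrm2 (0.28) and Chrm3 (0.21), were higher. With each panel centred, Glrb (0.07, adjusted p = 0.187) and Chrm3 (0.11, adjusted p = 0.118) did not pass, and Glrb did not with quantile normalization (adjusted p = 0.0849). Centred on the 2 housekeeping genes, 16 passed and the split turned to 4 higher and 12 lower. The calls over all genes turned likewise, to 183 higher and 483 lower, with a median of -0.10. Chrnb2, Grin1 and Grin2a were among the 4 higher receptor genes.

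Males had higher deposited values than females for nearly all receptor genes. In limma's test 35 of 38 were higher in males and 0 were lower, with a median of 0.35, but 86.4% of all genes passed and the median of all genes was 0.38. With other scalings the receptor calls went both ways, as did the calls over all genes. Median centring gave 12 receptors higher and 12 lower (423 and 307 over all genes). Centring in each panel gave 12 and 9 (336 and 291 over all genes). Quantile normalization gave 10 and 12 (352 and 341), and housekeeping centring 11 and 3 (448 and 153). Adra2a (0.87, SE 0.05, adjusted p = 5.36e-17), Grm5 (0.58, SE 0.04, adjusted p = 2.80e-15) and Htr1a (0.66, SE 0.05, adjusted p = 2.07e-13) had the smallest p. These 3 and Drd2, Grin1, Grin2c and Grm2 were higher in males under each of the 4 scalings. Cnr1, Glra3, Glrb, Gria2, Gria3 and Grm7, by contrast, were lower in males under median centring, centring in each panel and quantile normalization. By genotype, males were higher for 29 receptor genes and lower for 1 in 5xFAD (72% of all genes called), 26 and 1 in M28L_5xFAD (69%), and 34 and 0 in P522R_5xFAD (69.6%).

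The P522R difference itself depended on sex for 13 of 38 receptor genes, where 20.9% of all genes passed. Within females 17 receptor genes passed (11 higher, 6 lower; 60.2% of all genes) and within males 24 (15 higher, 9 lower; 50.6%). Groups did not overlap for 7 of the 38 genes in females and 20 in males; of all 1266 genes, 26.9% did not overlap in females and 32.8% in males. Gabrb2 and Grin2a were among the receptor genes without overlap in both sexes. The 13 genes fell into 2 sets, 8 with the more positive and 5 with the more negative difference in males. Glrb, Glra3, Cnr1, Gria3, Chrna7 and Grm7 had the more positive difference in males, and Grin2d, Grin2b, Grm2, Htr1a and Grm5 the more negative one.

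P522R_5xFAD minus 5xFAD for Cnr1 was 0.07 in females and 0.44 in males (between them 0.37, SE 0.08, adjusted p = 0.000495), with male values from 10.84 to 11.06 in 5xFAD and from 11.35 to 11.44 in P522R_5xFAD. Glrb, which anchors glycine receptors at the synapse, differed by -0.14 and 0.30 (between them 0.44, SE 0.09, adjusted p = 0.000628). P522R_5xFAD males had the highest median for both genes. In the other set, Grin2b differed by -0.32 in females and -1.02 in males, Htr1a by -0.19 and -0.84, and Grm2 by 0.27 and -0.39. For Grin2b, males exceeded females by 0.74 in 5xFAD and by 0.04 in P522R_5xFAD. Under housekeeping centring 3 receptor genes passed (Grin2b, Grin2d and Htr1a), each more negative in males. Over all genes, 0 were then called more positive and 56 more negative, with a median of -0.16. Grin2b and Htr1a passed under all 4 scalings, and 11 of the 13 passed under the other 3. The remaining 2 were Grm5, which passed under none of the 4 (adjusted p from 0.101 to 0.304), and Grin2d, at adjusted p of 0.05 to 0.0727 under those 3.

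**Figure D4:**
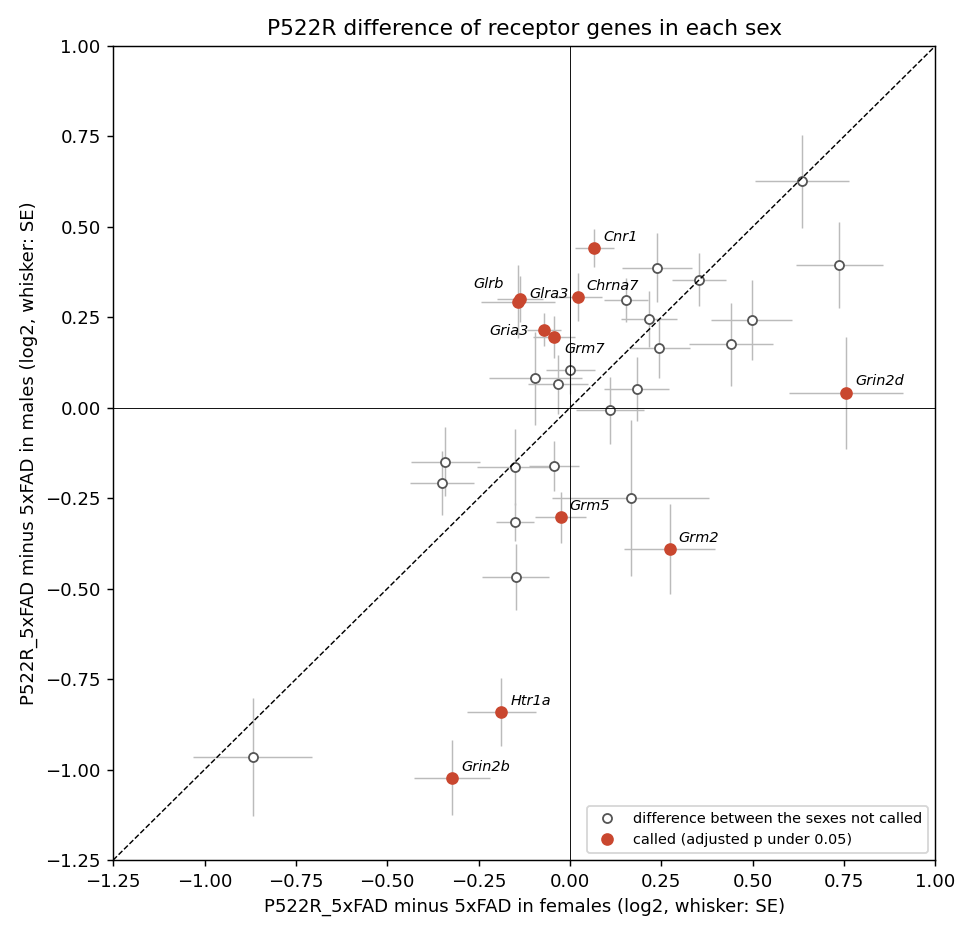
P522R_5xFAD minus 5xFAD in females (x) against males (y) on the log2 scale for 33 receptor genes, whiskers showing the SE; the dashed line marks equal differences. The 11 filled genes passed the test of the difference between the sexes, and Grin2b (-0.32 and -1.02), Htr1a (-0.19 and -0.84) and Glrb (-0.14 and 0.30) lie far from the line.

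Of the 38 receptor genes, 26 were read on the larger panel and 12 on the smaller one. Among the genes called for a sex difference in the P522R effect, of the 8 with the more positive P522R difference in males 7 are on the larger panel, and of the 5 with the more negative one 4 are on the smaller. The panel medians of all genes for that comparison were -0.08 and -0.13. After centring in each panel 8 were still called more positive and 3 more negative.

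The 6 near-floor receptor genes were Chrm5, Drd4, Gabrp, Gabrr1, Gabrr3 and Grin3b, with median counts per mouse from 6.5 to 21.5, all on the smaller panel. Gabrp, Gabrr1 and Gabrr3 encode GABA-A subunits found mainly outside cortex. Each of the 6 was higher in P522R_5xFAD than in 5xFAD, by 0.95 to 1.62, and so were 64% of the 175 genes under the same mean. Gabrr1 had the largest difference, 1.62 (SE 0.28, adjusted p = 5.19e-06): females ran from 1.39 to 3.45 in 5xFAD and from 2.84 to 4.36 in P522R_5xFAD, and males from 1.90 to 4.16 and from 4.28 to 5.08. The 6 were also higher in males, by 0.58 to 1.16, as were 138 of the 175. Within P522R_5xFAD and 5xFAD males alone Gabrp (0.79) and Grin3b (0.82) did not pass. None of the 6 passed for M28L. The median count over the 175 genes was 7 to 8 in the 5xFAD females and 15 to 22 in the P522R_5xFAD females, so these probes sit at a level shared by many dim probes, and whether their RNA was present was not tested.

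**Figure D5:**
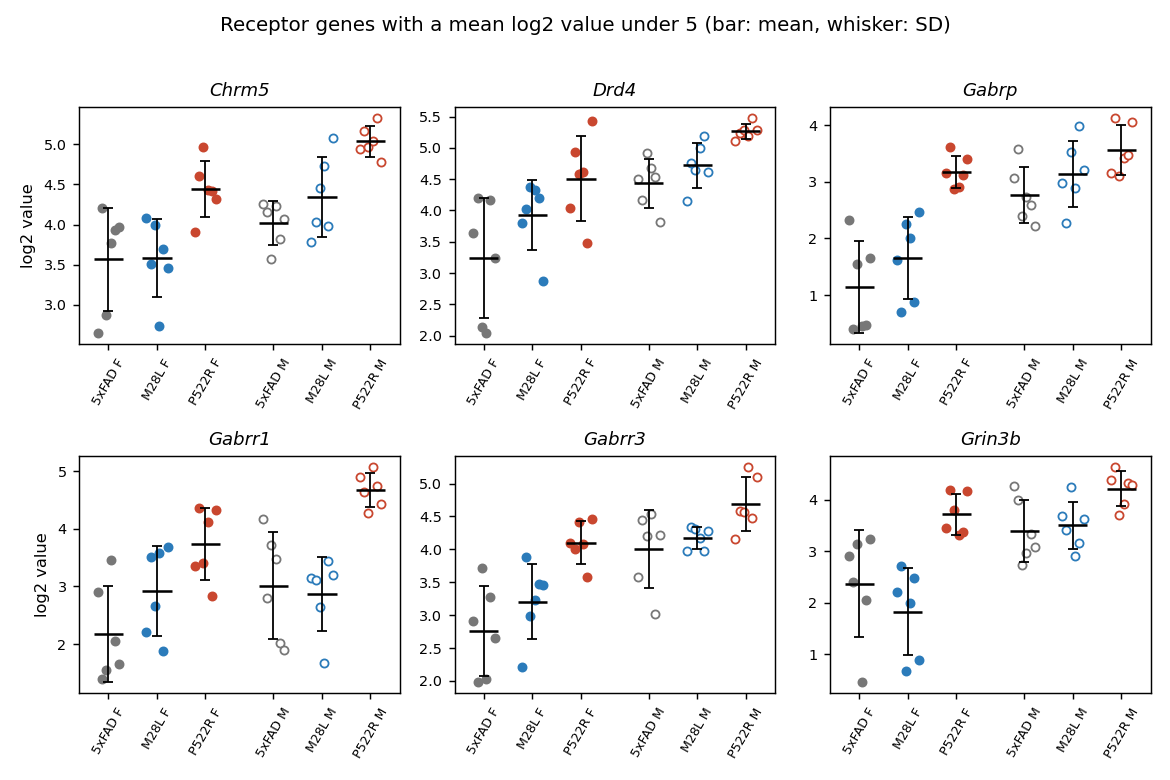
Log2 value per mouse of the 6 receptor genes with a mean under 5; filled points are females, open points males, bars the mean and whiskers the SD of 6 mice. P522R_5xFAD mice lie high in each panel, for Gabrp from 2.87 to 3.61 in females against 0.39 to 2.33 in 5xFAD females.

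Htra2, the protease taken by the name rule, was lower in P522R_5xFAD at -0.21 (SE 0.07, adjusted p = 0.00549), higher in males at 0.35, and did not pass for M28L at -0.07.

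Genes that act beside the receptors were read from lists; for comparison, 65.4% of all genes passed for P522R and 10.3% for M28L. Of 12 scaffold and trafficking genes measured, 8 were higher and 3 lower in P522R_5xFAD: Dlg4, which encodes the scaffold PSD-95 under glutamate receptors, was at -0.31 and Camk2b, a kinase subunit of the synapse, at -0.35, while Gphn, which encodes gephyrin under GABA-A and glycine receptors, was at 0.14 and Shank2 at 0.52. Of 24 genes for transmitter synthesis, transport and breakdown, 19 were higher and 2 lower; Gad1 and Gad2, which make GABA, were at 0.52 and 0.48, and Slc32a1, which loads GABA into vesicles, at -0.31. Of 30 G protein and second messenger genes, 14 were higher and 9 lower. Gnaq, the G protein alpha subunit that Grm5 and Chrm3 act through, was at -0.62, and Plcb1, the phospholipase it activates, at 0.44. In M28L_5xFAD, 1 of 12, 1 of 24 and 1 of 30 genes passed: Arc, an activity-induced gene, at 0.84, Slc32a1 at 0.17 and Plcb4 at -0.12.

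Markers of several cell types moved beside these results. In P522R_5xFAD 5 of 7 general neuronal markers were higher and 1 lower, with a median of 0.18; within females 6 were higher and 0 lower (median 0.39), and within males 2 were higher and 3 lower (median -0.04). All 3 markers of oligodendrocyte precursors were higher (median 0.61), as were 2 of 3 excitatory neuron markers (0.19) and 4 of 7 astrocyte markers, with 1 lower (0.17). Of 3 endothelial markers 2 were lower and 0 higher (-0.19), and of 8 microglial markers 2 were higher and 2 lower (-0.02). Of 5 oligodendrocyte markers 1 was higher and 1 lower (0.09), and of 8 lymphocyte markers 6 were higher and 0 lower (0.70). The lymphocyte markers were dim, with a mean log2 value per mouse from 2.36 to 4.59. Of the 175 genes with a mean under 5, 64% were higher in P522R_5xFAD, with a median of 0.58. Among inhibitory neuron markers 2 of 7 were higher and 5 lower, with a median of -0.31: Gad1 (0.52) and Gad2 (0.48) were higher, and Pvalb (-0.52), Npy (-0.44), Calb2 (-0.34), Slc32a1 (-0.31) and Vip (-0.23) lower. Summed neuronal levels had group medians of 15.5 in 5xFAD and 15.9 in P522R_5xFAD females, and of 16.0 in both male groups. In M28L_5xFAD 0 of the 7 neuronal markers passed (median -0.09) and 2 of the 7 inhibitory ones were higher, while 1 of 7 astrocyte and 1 of 3 endothelial markers were lower, and of 8 microglial markers 1 was higher and 2 lower. Their part in the receptor differences was not tested.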

How the data were processed

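Receptor genes were read in cortex of 36 mice, each joining 2 panel records. The authors' deposited values are normalized log2 counts per gene, 1 column per mouse; how they were normalized is not stated in the labels used here. RNA came from a column kit and standard nCounter runs, per the labels' protocols. Of 1517 rows, 251 without a name were left out; 0 columns belonged to other samples. All 100% of values were whole multiples of a panel step within 0.05 counts, which gave the counts printed as depth; no interval is given for them.

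Group means of 6 groups were fitted with limma 3.58.1 (R 4.3.3) on all 1266 genes, with eBayes trend, two-sided tests and Benjamini-Hochberg adjustment over all genes; the threshold was 0.05. SE, intervals and p measure the spread between mice. The script was tested on simulated data. Genes described in full were the 6 largest called differences for each genotype against 5xFAD, the 3 smallest p for sex and for each interaction, and the gene with the highest mean of each class. Some genes counted here are not reported by name and not drawn. The members and lists were chosen with earlier results of these data known. Upstream sequences are from RefSeq GRCm38.p6. Other scalings, filters, fits and mice left out were tried, 16 settings in all.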

Additional observations from a re-analysis of the deposited data

Results flagged for a closer look

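In 13 of 270 combinations of a member and a group of 6 mice, 1 mouse lay farther from the rest than Dixon's 95% limit allows. That is 4.81%, and chance alone gives about 1 in 20. Among 5xFAD females, mouse 1248 had 7.53 for Chrm2 (the others 6.89 to 7.10), mouse 1180 had 8.38 for Chrm3 (8.69 to 8.78) and mouse 1253 had 10.85 for Cnr1 (10.93 to 10.98). The 5xFAD male 1181 had 9.04 for Grin2a (the others at most 9.21). M28L_5xFAD female 12 had 12.51 for Gria3 (12.23 to 12.30), male 21 had 9.36 for Chrna7 (9.5 to 9.58) and male 15 had 7.05 for Htr5a (7.41 to 7.50). P522R_5xFAD female 60 was lowest for Grin2c at 4.37 (6.14 to 6.61) and highest for Grm8 at 8.13 (7.30 to 7.60). Female 106 had 8.1 for Gabra5 (9.21 to 9.56), female 24 had 9.90 for Grm7 (9.71 to 9.78) and female 8 had 7.35 for Htra2 (6.82 to 6.98). P522R_5xFAD male 23 had 8.39 for Drd2 (8.1 to 8.21).

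For 13 receptor genes the P522R difference differed between the sexes in limma's test. Of these, 11 are given here. Male minus female effects above 0 were 0.44 for Glrb, 0.43 for Glra3, 0.37 for Cnr1, 0.29 for Gria3, 0.28 for Chrna7 and 0.24 for Grm7. Effects below 0 were -0.71 for Grin2d, -0.70 for Grin2b, -0.66 for Grm2, -0.65 for Htr1a and -0.28 for Grm5; Grin2d and Grm5 are the 2 of the 13 that did not pass under median centring, centring in each panel and quantile normalization.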

How the results depend on the processing

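Counts are of the 38 receptor genes at or above the floor. For M28L, 8 genes passed; 5 did with each panel centred, 4 with housekeeping centring, 0 without a sex term and 3 with M28L index numbers 7 to 9 alone. In females 1 passed; 2 did with median centring, 3 with housekeeping centring, 2 with a filter at a mean of 5, 3 with index 1 to 3, 0 with index 7 to 9 and 0 with mice numbered 14 averaged. In males 2 passed; 0 did with each panel centred, with index 1 to 3 or with index 7 to 9. Housekeeping centring, which rests on 2 genes, gave 16 for P522R_5xFAD against M28L_5xFAD, 10 for P522R in females, 11 in males, 3 for the P522R difference between sexes and 14 for sex. For sex, 21 passed with each panel centred and 22 with quantile normalization. Housekeeping centring turned the M28L differences of Gria3 to 0.0016, Grin2a to 0.0103 and Cnr1 to 0.0488; quantile normalization turned Gria3 in P522R to -0.0188. The cause was not tested.

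The labels do not say what the index numbers mean. Of 22 same-numbered pairs, 1 had a correlation of deviations over 0.1 (range -0.485 to 0.289). These correlations cannot show whether same-numbered mice shared a source or a run. With the index numbers as a replicate block, 5 genes passed for M28L, 0 in females and 0 in males, and 6 for the P522R difference between sexes. Each block lay within 1 sex, so that fit cannot test the difference between males and females. Leaving out P522R_5xFAD female 8 or male 30, chosen after the data were seen, gave 24 for P522R, 22 to 24 in males, 17 to 18 in females and 12 to 13 for its difference between sexes. The 6 near-floor genes had median counts per mouse of 6.5 to 21.5.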
